A study of Rattus norvegicus with 27 samples.

Results

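The scaffold under excitatory synapses was followed in the mPFC transcriptome of 27 rats through 9 of its genes, namely Dlg1, Dlg2, Dlg3, Dlg4, Shank1, Shank2, Shank3, Homer1 and Dlgap1. They were picked by their rat symbols, and each matched 1 of the 36865 rows of the count table, so 9 of 36865 rows were members. All 27 libraries came from male Wistar rats (Rattus norvegicus) in a resting state, 1 library per rat, and were made from polyA RNA of the homogenised bilateral medial prefrontal cortex (mPFC), taken on the coronal slice as infralimbic, prelimbic and anterior cingulate cortex. Learned helplessness is the treatment label that every one of these samples carries, whereas the treatment protocol lists Fear conditioning, acoustic startle and the Open Field, Light-Dark and Elevated Plus-Maze tests. By the study's methods, the sequenced Wistar rats had repeated Open Field, Light-Dark and Elevated Plus-Maze tests. Startle and fear conditioning were done there in Long-Evans rats, and learned helplessness is not described. No untreated or control group was among the samples, and neither the rats' ages nor their anxiety scores were used here. What could be measured was how strongly each scaffold gene was read, how far rats differed in it, and which of the genes moved with each other.

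The postsynaptic density is the protein mesh under the membrane of an excitatory synapse, where it holds glutamate receptors opposite the transmitter release site. The Dlg proteins (membrane-associated guanylate kinases, with PSD-95 encoded by Dlg4) bind receptors and their auxiliary subunits near the membrane. Dlgap1 (GKAP) ties the Dlg proteins to the Shank proteins deeper in the mesh, and Homer1 binds Shanks and links them to group I metabotropic glutamate receptors. The Homer1 locus also makes a short transcript that neuronal activity induces, but gene-level counts held all transcripts of a locus together.

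Windows at the start of members that moved together are shown first, because the correlations below are between the reads of these genes. RefSeq windows of 250 bases before to 50 bases after an annotated start (rat build GRCr8) were matched for 6 of the 9 members, the others being Dlg3, Shank1 and Shank2. Those of Dlg1, Homer1 and Shank3 lay at the 5′ end of the RefSeq gene span and are printed, Shank3 for one set of genes that rose and fell together and Dlg1 and Homer1 for the other. The starts behind the windows of Dlg4, Dlg2 and Dlgap1 lay inside the gene span, 387 bases from its 5′ end for Dlg4 and at least 309940 for the others, so these are not the region before the gene and are not printed. Capitals mark matches to the motifs searched on both strands, which were the E-box CACGTG, the YY1 core GCCATCTT, the GC box GGGCGG, the cAMP response element core TGACG and the EGR site GCGGGGGCG.
Shank3 (chr7:122448073-122448372, plus strand): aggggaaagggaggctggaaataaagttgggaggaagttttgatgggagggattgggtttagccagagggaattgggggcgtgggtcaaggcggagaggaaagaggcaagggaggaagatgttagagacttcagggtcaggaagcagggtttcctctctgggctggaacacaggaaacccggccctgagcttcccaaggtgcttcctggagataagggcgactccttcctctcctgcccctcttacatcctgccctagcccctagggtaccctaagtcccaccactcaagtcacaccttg
Dlg1 (chr11:82607748-82608047, minus strand): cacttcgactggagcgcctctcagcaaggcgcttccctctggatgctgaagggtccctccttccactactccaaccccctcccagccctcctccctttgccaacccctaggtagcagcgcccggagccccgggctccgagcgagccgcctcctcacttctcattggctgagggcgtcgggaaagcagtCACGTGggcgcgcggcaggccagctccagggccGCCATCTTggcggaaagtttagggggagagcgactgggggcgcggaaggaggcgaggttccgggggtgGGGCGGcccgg
Homer1 (chr2:26278762-26279061, plus strand): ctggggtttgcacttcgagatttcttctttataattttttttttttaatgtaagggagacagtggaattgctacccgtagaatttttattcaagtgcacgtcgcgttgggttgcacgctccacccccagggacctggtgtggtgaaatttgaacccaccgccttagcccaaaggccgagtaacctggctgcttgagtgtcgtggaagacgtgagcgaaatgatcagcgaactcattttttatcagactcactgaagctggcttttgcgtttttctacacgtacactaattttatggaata

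Of the 6 members with a window, Dlg1 was the one with a match, holding 1 E-box, 1 YY1 core and 1 GC box. Among all 33469 RefSeq windows of this length, 6.42% held the E-box, 3.17% the YY1 core, 33.1% the GC box, 21.2% the response element core and 2.73% the EGR site. A match is a string of letters and not a measured binding site. The guanine and cytosine content of the printed windows was 69.0% for Dlg1, 56.3% for Shank3 and 44.7% for Homer1, against a median of 51.7% over all windows.

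Libraries held 4907255 to 12771309 reads on genes (median 8168801). Depth split with the numbers that name the libraries, since 16 of them, up to number 31, held at most 8568317 reads and the 11 from number 32 held at least 9404220. The study's methods name more than one cohort of male Wistar rats, from which the sequenced animals were picked by composite anxiety score. Which library came from which cohort, and what the numbering stands for, is not given in the sources used here. The place of this split was known from earlier results of these data, and depth, library set and cohort cannot be told apart. All 7 excitatory cortical neuron markers (such as Slc17a7) were read, with a summed level of 1180 to 2057 CPM (reads scaled to equal library totals), whereas the interneuron marker Sst was listed at 0 in a table in which 5 other GABAergic markers were read. Library 3 stood apart. Over 9846 genes the SD of its log2 differences from the other libraries was 0.525, against a median of 0.225 per library. It had the highest oligodendrocyte marker sum (7380 CPM, against a lowest of 2143, over 9 markers of which none was at 0) and the lowest excitatory marker sum (1180 CPM). Results that rest on it are given with and without it, and the part of its cell makeup in them was not tested. In bulk tissue, fewer cells of a type and less RNA per cell cannot be told apart.

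The scaffold genes were among the more strongly read genes of the cortex, and their spread between rats was unequal. Reads were divided by library size factors ("normalized reads"), and values are given as mean ± SD over the 27 libraries. Values of different genes are not set against each other as amounts of RNA, because transcript lengths were not used and longer transcripts yield more reads.

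Dlg4, which encodes PSD-95, the most studied receptor anchor of the family, had 7564 ± 750.5 normalized reads (n = 27), with a lowest of 5948 in library 9, a median of 7621 and a highest of 8750 in library 26. Library 3 stood near its lower end, and the range spanned 1.47-fold. Dlg3 (SAP102), an anchor of NMDA receptors early in development, had 1433 ± 202.8 reads, from 709.6 in library 3 through a median of 1427 to 1875 in library 12. Dlg1 (SAP97), which accompanies AMPA receptors on their way to the membrane, had 856.5 ± 124.2, from 472.5 in library 3 through 881.5 to 1034 in library 12. Dlg2 (PSD-93), the nearest relative of PSD-95, had 593.4 ± 184.5, from 183.5 in library 3 through 567.3 to 911.0 in library 12. Library 3 was thus the lowest and library 12 the highest for Dlg1, Dlg2 and Dlg3 alike. Dlg2 had the widest range of the 9 members at 4.96-fold, and it stayed low in library 19 (316 reads), library 54 (337 reads) and library 18 (413 reads).

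Dlgap1, the link between the Dlg and Shank layers, was the steadiest member. It had 6031 ± 426.2 normalized reads (n = 27), from 5146 in library 5 through a median of 6086 to 6820 in library 20, a range of 1.33-fold. In library 3, where 6 other members had their lowest value, Dlgap1 lay at its own median.

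The Shank genes encode the large scaffold proteins that join the receptor layer to the actin cytoskeleton. Shank1 had 5143 ± 1050 normalized reads (n = 27), from 2421 in library 3 through a median of 5320 to 7364 in library 35. Libraries 19 (2957 reads), 18 (3578 reads) and 9 (3634 reads) followed library 3 at its lower end, apart from the other 23 libraries, of which the lowest had 4477. Shank2 had 1461 ± 192.7 reads, from 886.9 in library 3 through 1516 to 1787 in library 26. Shank3 had 2815 ± 355.2 reads, from 2158 in library 3 through 2891 to 3576 in library 35. Libraries 3, 9, 18 and 19 were the 4 lowest for all 3 Shank genes.

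Homer1, which crosslinks Shanks and metabotropic receptors, had 1456 ± 195.7 normalized reads (n = 27). Its lowest value was 1139 in library 26, its median 1435 and its highest 1824 in library 12. Library 26, the lowest for Homer1, was the highest for Dlg4 and Shank2, and libraries 18 and 19, low for the Shanks, stood at 1641 and 1435 reads, at or above the Homer1 median.

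**Figure D1:**
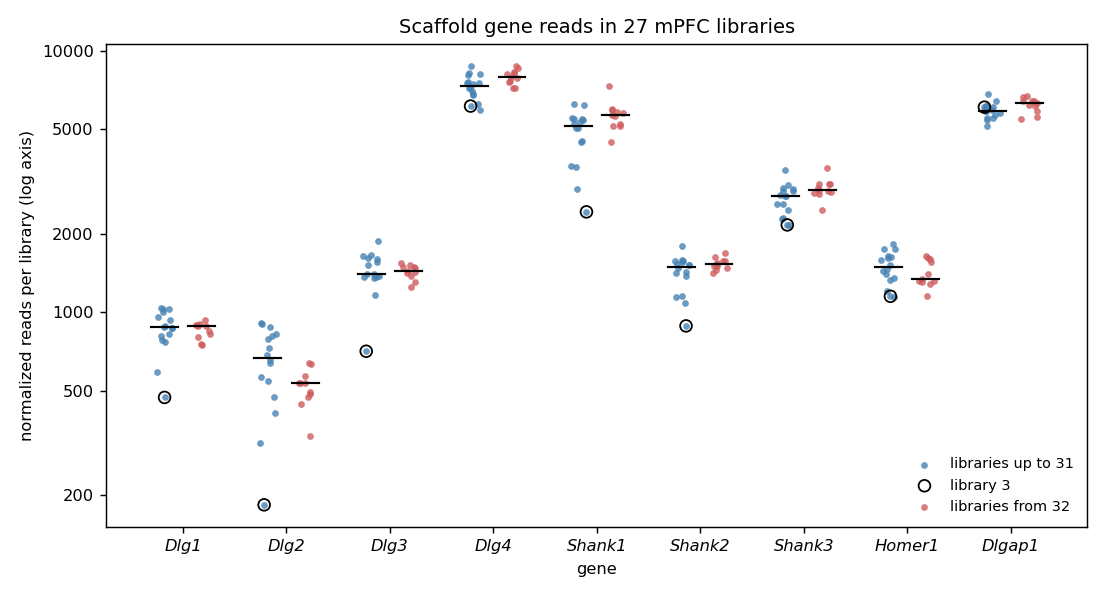
Normalized reads of the 9 scaffold genes (log axis), 1 point per library, in libraries numbered up to 31 (n = 16, blue) and from 32 (n = 11, red), with short lines at the set medians and library 3 circled. Dlg2 spreads from 183.5 to 911.0, Dlgap1 from 5146 to 6820, and library 3 lies at the bottom of Dlg1, Dlg2, Dlg3 and the 3 Shank genes.

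Every member varied between rats by more than read counting allows (chi-square dispersion test, adjusted p under 0.05 for 9 of 9), but so did 89.8% of all 11730 genes with a mean of at least 10 reads. Counting error made up 0.479% of the variance of Shank1 and 5.70% of that of Dlg1, the lowest and highest shares among the members. On the log2 scale the SD between libraries was 0.52 for Dlg2, 0.34 for Shank1, 0.24 for Dlg1 and for Dlg3, 0.21 for Shank2, 0.20 for Homer1, 0.19 for Shank3, 0.15 for Dlg4 and 0.10 for Dlgap1. The median over the members was 0.21, against 0.14 over the 4035 genes with a mean of at least 500 normalized reads, and 8 of 9 members lay above that median. The SD of Dlg3 was 0.14 without library 3, where that of Dlg1 was 0.17, that of Dlg2 0.41 and that of Shank1 0.28. The median over the members was then 0.17 against 0.13, and 8 of 9 again lay above, with Dlg3 and Dlg4 (0.14 each) near it. Over all 27 libraries, 0.793% of those 4035 genes had a larger SD than Dlg2 and 3.15% a larger one than Shank1, whereas 78.3% had a larger one than Dlgap1. The SD was smaller in the deeper libraries from 32 than in those up to 31 for 9 of 9 members on this scale, for example 0.11 against 0.30 for Dlg1, with Dlgap1 nearly level at 0.0978 against 0.0982. Without library 3 it was smaller from 32 for 9 of 9 as well, and the SD up to 31 was 0.21 for Dlg1 and 0.17 for Dlg3, which had 0.31 with it. These differences in spread between the sets were not tested. The share of all genes with a smaller SD from 32 is not given here, so they cannot be read as particular to the members.

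The members did not move as 1 block across rats. For each member, edgeR's quasi-likelihood test was fitted across all genes with that member's standardized log2 value as the covariate, and a pair was called where each gene passed in the fit on the other (Benjamini-Hochberg adjusted p under 0.05 over all genes). Of 36 pairs 17 were called, all of them positive. Many other genes followed the same covariates, so these counts need their background. In the fit on Dlg1, 5 of 8 other members passed and 34.6% of all genes did. For Dlg2 it was 5 of 8 beside 31.6%, for Dlg3 5 of 8 beside 35.6%, and for Dlg4 3 of 8 beside 20.6%. For Shank1 it was 6 of 8 beside 34.4%, for Shank2 6 of 8 beside 34.9%, and for Shank3 3 of 8 beside 26.8%. In the fit on Homer1 2 of 8 passed beside 16.6%. In the fit on Dlgap1 0 of 8 passed with edgeR beside 0.0171%, also 0 of 8 at an unadjusted p under 0.05. The median Spearman's rho of the 36 pairs was 0.20, against -0.0049 over the 68626470 pairs of genes tested, and 27.8% of the member pairs (10) reached a rho of 0.5, against 4.53% of all gene pairs.

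The Shank genes and Dlg4 rose and fell together. Shank1 and Shank3 gave the highest rho of any member pair, 0.87 (permutation p = 1e-05, the smallest that 100000 permutations can give, two-sided as are all permutation tests here), with a Pearson's r of 0.90 (p = 1e-05) and an edgeR adjusted p of 6.44e-08. Their rho was 0.89 among the libraries up to 31 and 0.75 among those from 32, and r was 0.93 without libraries 3 and 19, the 2 farthest from the Shank1 median. Shank1 and Shank2 had a rho of 0.82 and an r of 0.95 (p = 1e-05 for both, again the smallest possible), and 0.86 and 0.75 for rho within the sets. Dlg4 followed Shank1 with a rho of 0.77 and an r of 0.84 (p = 1e-05 for both, the smallest possible), and with 0.72 and 0.67 for rho within the sets. Its edgeR adjusted p was 9.08e-05. Dlg4 and Shank2 had a rho of 0.70 (permutation p = 6e-05) that was 0.89 among the libraries up to 31 and 0.22 among those from 32 (p = 0.520), and the difference between the sets was not tested. All 6 pairs of these 4 genes were called, with a rho from 0.68 to 0.87 and a median of 0.75, and all 6 were also called without library 3 (0.64 to 0.86).

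Dlg1, Dlg2 and Dlg3, the other members of the PSD-95 family, were called with each other, and Dlg1 and Dlg3 also with Homer1 over all 27 libraries. Dlg1 and Dlg3 had a rho of 0.76 (permutation p = 3e-05) and an r of 0.91 (p = 1e-05, the smallest possible), with an edgeR adjusted p of 6.34e-08. This relation was 0.85 among the libraries up to 31 and 0.20 among those from 32, where the permutation p was 0.558 and the log2 SD of Dlg1 was 0.11 against 0.30. It was thus not detected within the deeper set, and the difference between the sets was not tested. Dlg1 and Dlg2 had a rho of 0.75 and an r of 0.88 (p = 1e-05 for both, the smallest possible), and it was 0.80 (p = 0.0005) and 0.63 (p = 0.0432) within the sets. Dlg1 and Homer1 had a rho of 0.64 (permutation p = 0.00047) and an r of 0.56 (p = 0.00134), with an edgeR adjusted p of 0.0183 that was 0.0444 without library 3. Without libraries 12 and 20, the 2 highest for Homer1, the call was lost (rho 0.54, edgeR adjusted p = 0.118). Dlg3 and Homer1 had a rho of 0.48 (p = 0.0124), and their call was lost without library 3 (rho 0.42, edgeR adjusted p = 0.0663). Dlg2 and Homer1 were not called, at a rho of 0.40 and an edgeR adjusted p of 0.0694. Without libraries 12 and 20 no member pair of Homer1 was called. Of the 6 pairs of these 4 genes 5 were called, with a rho from 0.40 to 0.76 and a median of 0.60. The 2 sets of 4 genes were drawn after these values were seen, so they are given as a description with no test.

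**Figure D2:**
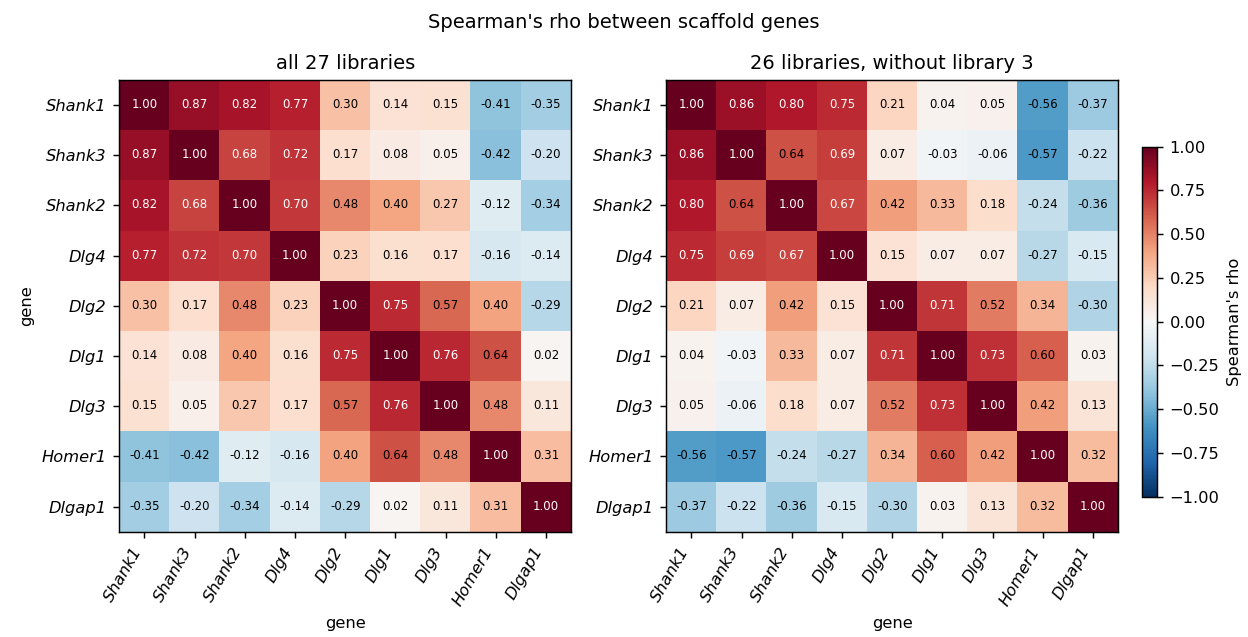
Spearman's rho between each pair of the 9 scaffold genes (color scale from -1 to 1, values printed in the cells), over all 27 libraries on the left and over the 26 libraries without library 3 on the right. The block of Shank1, Shank3, Shank2 and Dlg4 stays at 0.64 or above in both, while Homer1 against Shank1 and Shank3 goes from -0.41 and -0.42 to -0.56 and -0.57.

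Between the 2 sets of 4 genes the relation by rank was lower and moved with the libraries and the library set. The 16 cross pairs had a rho from -0.42 to 0.48 with a median of 0.16. Of these, 6 were called, namely each of Dlg1, Dlg2 and Dlg3 with each of Shank1 and Shank2. None of the 6 was called without library 3. Dlg1 and Shank1 had an r of 0.66 (permutation p = 0.00159) but a rho of 0.14 (p = 0.482), an r of 0.043 without libraries 3 and 19, and an edgeR adjusted p that went from 0.00276 to 0.186 without library 3. That relation rests on those libraries. Dlg2 and Shank2 had the highest rho of the cross pairs, 0.48 (p = 0.0118), which was 0.77 (p = 0.00056) among the libraries up to 31 and 0.13 (p = 0.713) among those from 32. With the library set as a term in the fit, 19 pairs were called, among them all 17, and Dlg2 with Dlg4 and with Shank3 were the added ones. In that setting the rho, here and below computed apart from the fit, was 0.70 for Dlg2 and Shank2. It was 0.67 for Dlg2 and Shank1 (0.30 over all libraries without the term), 0.52 for Dlg2 and Dlg4 and 0.42 for Dlg1 and Shank1. The median over the 36 pairs was 0.41. The 0.70 covers both sets, whose own values were 0.77 and 0.13. The call count was 10 without library 3, all of them among the 17, and in those fits the share of all genes called was 15.8% for Dlg1, 21% for Dlg2, 18.8% for Dlg3, 9.47% for Dlg4, 17.8% for Shank1, 16.7% for Shank2, 19.1% for Shank3 and 19.7% for Homer1. With the library set as a term these shares were 38.0%, 38.5%, 38.8%, 12.0%, 30.4%, 32.3%, 20.5% and 18.9% in the same order of genes.

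Homer1 had a negative rho with Shank1 and Shank3. It was -0.42 with Shank3 (permutation p = 0.0297) and -0.41 with Shank1 (p = 0.0364), while Pearson's r was -0.28 (p = 0.158) and -0.036 (p = 0.857). Neither pair was called over all 27 libraries (edgeR adjusted p = 0.210 and 0.809). Without library 3, the lowest library for both Shanks and one of the lowest for Homer1, the rho was -0.57 with Shank3 and -0.56 with Shank1, at an edgeR adjusted p of 0.0534 and 0.251. With the library set as a term the rho was -0.29 with Shank3 and -0.17 with Shank1. Within the sets, the rho with Shank1 was -0.085 (permutation p = 0.757) up to 31 and -0.70 (p = 0.0203) from 32, and that with Shank3 -0.29 (p = 0.279) and -0.29 (p = 0.386). Homer1 and Shank2 had a rho of -0.12 (permutation p = 0.548), which was 0.12 (p = 0.658) up to 31 and -0.53 (p = 0.0996) from 32. The differences between the sets were not tested. Dlgap1 had no called partner among the members. Its rho ranged from -0.35 with Shank1 to 0.31 with Homer1, with a median of -0.17 over 8 pairs.

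**Figure D3:**
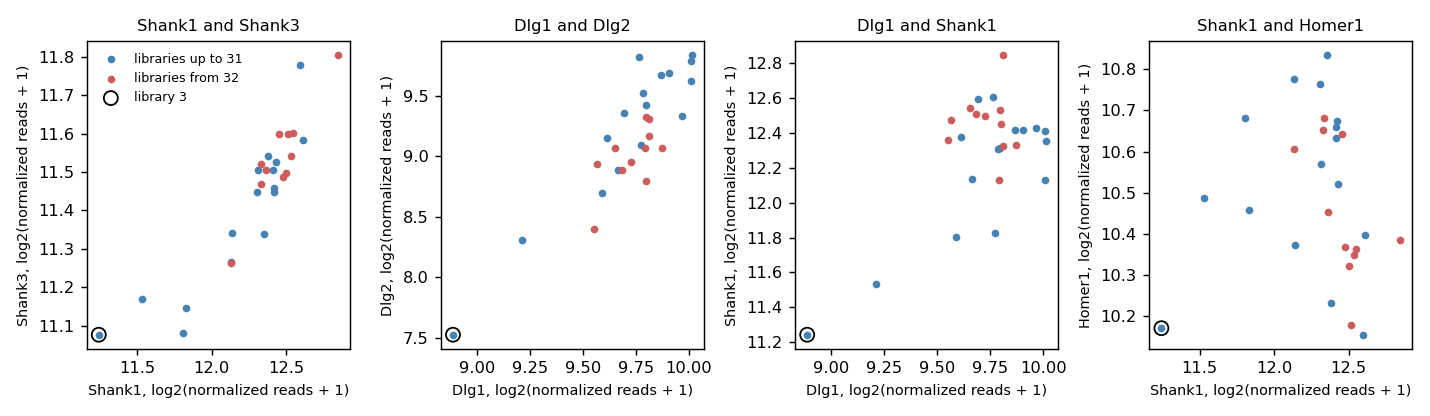
log2(normalized reads + 1) of 4 gene pairs, 1 point per library, in libraries up to 31 (blue) and from 32 (red), with library 3 circled. Shank1 and Shank3 (rho 0.87) and Dlg1 and Dlg2 (rho 0.75) rise together with and without library 3, Dlg1 and Shank1 (rho 0.14) are both low in the libraries at the lower left, and Homer1 against Shank1 has a rho of -0.41.

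The genes whose pattern was most like each member were taken as the 3 highest rho over 27 libraries among 9751 genes with a mean of at least 50 normalized reads. They are descriptions and were not tested one by one. For Shank1 they were Sec16a (rho 0.90), Adcy5 (0.90) and Prrc2a (0.86), and for Shank3 Prrc2a (0.93), Mast2 (0.90) and Crtc1 (0.87), so that Prrc2a stood in both. For Shank2 they were Wdfy3 (0.87), Atp6v0a2 (0.87) and Ncan (0.85), the last encoding the matrix proteoglycan neurocan. For Dlg4 they were Cntnap1 (0.82), Eef2 (0.81), a translation elongation factor, and Jph3 (0.81). Dlg1 and Dlg3 shared Cadps (rho 0.84 and 0.90), a priming factor for dense-core vesicles. Dlg1 also had Stxbp6 (0.88) and Btbd3 (0.84), and Dlg3 had the vesicle calcium sensor Syt1 (0.90) and the potassium channel gene Kcnj3 (0.90). For Dlg2 they were Mtmr9 (0.94), the kinesin gene Kif1b (0.93) and Slc36a4 (0.92). For Homer1 they included Syt4 (0.89) and Zdhhc2 (0.86), which encodes a palmitoyltransferase known to act on PSD-95.

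Dlgap1 differed from the other members in how few genes followed it. In its fit 2 of 11715 genes passed, Rbfox1 (rho 0.85, 0.12 log2 per SD of Dlgap1, SE 0.014, edgeR adjusted p = 2.79e-05) and Ppp3ca (rho 0.74, 0.10 log2 per SD, SE 0.018, edgeR adjusted p = 0.0113). Rbfox1 encodes a neuronal splicing factor and Ppp3ca the catalytic subunit of calcineurin. Ppp3ca was not called without libraries 12 and 20 (edgeR adjusted p = 0.123) or with total counts in the log2 values (edgeR adjusted p = 0.0999). The third gene by rho was Ing2 (0.74).

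The relatives of the members also differed in which members they followed. Dlgap2 had 177.2 ± 42.56 normalized reads (n = 27) and a rho of 0.83 with Dlg1 and 0.85 with Dlg2, against 0.54 with Shank2, 0.47 with Homer1 and 0.31 with Shank1. Dlgap3 (3967 ± 508.3 reads) had a rho of 0.74 with Dlg4 and 0.75 with Shank3, against -0.062 with Dlg1 and -0.16 with Dlg2. Dlgap4 (2016 ± 237.1 reads) had a rho of 0.69 with Dlg4 and 0.75 with Shank1, against 0.34 with Dlg1, 0.29 with Dlg3 and 0.19 with Dlg2. None of these 3 relatives followed Dlgap1, with a rho from -0.074 to 0.080. The weakly read relatives Homer2 (81.06 ± 13.17 reads) and Homer3 (109.7 ± 17.06 reads) had a rho of 0.11 and -0.42 with Homer1. Dlg5 was listed at 0 in all 27 libraries. The differences between these rho values were not tested.

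Partner genes of the scaffold were counted in the fits on the members from lists chosen with earlier results of these data known. Of the signalling enzymes and regulators 10 of 13 were tested, among them Camk2a, the calcium-activated kinase of the density, and 8 or 9 of the 10 were called higher with each Dlg and Shank gene. In the fits on Dlg1, Dlg2, Dlg3, Dlg4, Shank1, Shank2 and Shank3 the counts were 8, 9, 8, 9, 9, 9 and 8 of 10, and none was called lower. Of all genes, 16.9%, 15.9%, 17.3%, 9.65%, 16.4%, 16.9% and 12.8% were called higher in these fits. The counts were 1 of 10 in the fit on Homer1, beside 9.01% of all genes, and 0 of 10 in that on Dlgap1 (1 of 10 at an unadjusted p under 0.05), beside 0.0171%. Camk2a changed by 0.33 log2 per SD of Shank1 (SE 0.042, edgeR adjusted p = 9.04e-07). It changed by 0.26 without library 3 and by 0.15 without libraries 3, 18 and 19 (edgeR adjusted p = 0.0345). Without library 3 the counts were 6 for Dlg1 and Dlg2, 5 for Dlg3, Dlg4 and Shank3, 8 for Shank1 and Shank2, and 1 for Homer1. The shares of all genes called higher were then 10.6% for Dlg1, 12% for Dlg2, 11.3% for Dlg3, 5.07% for Dlg4, 9.79% for Shank1, 8.99% for Shank2, 9.8% for Shank3 and 10.5% for Homer1, and the shares in these fits hold for the counts of the other lists too. Without libraries 3, 18 and 19 the counts were 3 to 5 in the fits on the 7 Dlg and Shank genes. The shares of all genes called higher were then 11% for Dlg1, 12.6% for Dlg2, 9.79% for Dlg3, 0.939% for Dlg4, 2.9% for Shank1, 1.15% for Shank2, 6.27% for Shank3 and 10.6% for Homer1.

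Glutamate receptor subunits (8 of 8 tested) showed other counts. Of these, 5 were called higher in the fits on Dlg1, on Dlg3 and on Homer1, 4 in the fit on Dlg2, 2 in those on Shank1 and Shank2, and 1 in those on Dlg4 and Shank3. One was called lower in the fits on Dlg1, Dlg2, Dlg4, Shank1, Shank2 and Shank3. The median change over the list was 0.10 log2 per SD of Dlg3 and -0.0050 per SD of Shank3. The largest change was that of Grin2a, an NMDA receptor subunit gene, at 0.82 per SD of Dlg3 (SE 0.14, edgeR adjusted p = 4.17e-05), followed by Grm5, which encodes the metabotropic receptor that Homer binds, at 0.60 (SE 0.092, edgeR adjusted p = 9.17e-06). In the fit on Homer1 these were 0.44 for Grin2a (SE 0.13, edgeR adjusted p = 0.0212) and 0.33 for Grm5 (SE 0.098, edgeR adjusted p = 0.0212). Without libraries 12 and 20 neither was called with Homer1 (0.26 and 0.24, edgeR adjusted p = 0.273 and 0.178), and without library 3 Grm5 changed by 0.37 per SD of Dlg3. Without libraries 3, 18 and 19 Grin2a changed by 0.54 per SD of Dlg3. Grin2a was weakly read, at 70.23 ± 47.21 normalized reads. Without library 3 the number called higher was 4 for Dlg1 and for Dlg3, 5 for Homer1, and 1 for Shank1, Shank3 and Dlg4. Without libraries 12 and 20 it was 5 for Dlg1 (beside 15.4% of all genes), 5 for Dlg3 (16.1%) and 1 for Homer1 (3.14%). All these fits use the same 27 libraries, and the differences between their counts were not tested.

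Transmembrane partners of the Dlg proteins (7 of 9 tested, among them the AMPA receptor auxiliary subunits Cacng2, Cacng3 and Cacng8) were called higher in 3 or 4 of 7 cases in the fits on all members but Dlgap1, which had 0, and 1 was called lower in the fit on Shank3. Lrrtm2, an adhesion protein of excitatory synapses, changed by 0.27 log2 per SD of Homer1 (SE 0.050, edgeR adjusted p = 0.000884). Other adaptors (14 of 15 tested) gave 8 called higher in the fits on Dlg1, Dlg2, Dlg3, Shank1 and Shank2, 6 in that on Shank3, 5 in that on Dlg4 and 2 in that on Homer1. Tanc2, a large adaptor that binds PSD-95, changed by 0.58 log2 per SD of Dlg2 (SE 0.052, edgeR adjusted p = 1.51e-09). Adaptors were also called lower, 4 in the fit on Shank1 and none in that on Homer1, so this list moved both ways. Without libraries 3, 18 and 19 between 0 and 3 adaptors and between 0 and 4 transmembrane partners were called higher in these fits, beside the 0.939% to 12.6% of all genes given above for the fits other than that on Dlgap1.

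Within the Dlg family, Dlg4 took 72.5% ± 3.32 (SD, n = 27) of the summed reads of Dlg1 to Dlg4 in a library, Dlg3 13.7% ± 1.42, Dlg1 8.19% ± 0.895 and Dlg2 5.61% ± 1.50. These are shares of reads, not corrected for transcript length, and they do not depend on the scaling between libraries. The share of Dlg4 ran from 67.9% in library 12 to 81.8% in library 3, and that of Dlg2 from 2.44% in library 3 to 8.45% in library 5. Counting alone would give the Dlg2 share an SD of 0.230. Within the Shank family, Shank1 took 54.2% ± 3.0, Shank3 30.2% ± 2.48 and Shank2 15.6% ± 0.950. Library 3 held the lowest share of Shank1 (44.3%) and the highest of Shank3 (39.5%), followed for Shank1 by library 19.

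**Figure D4:**
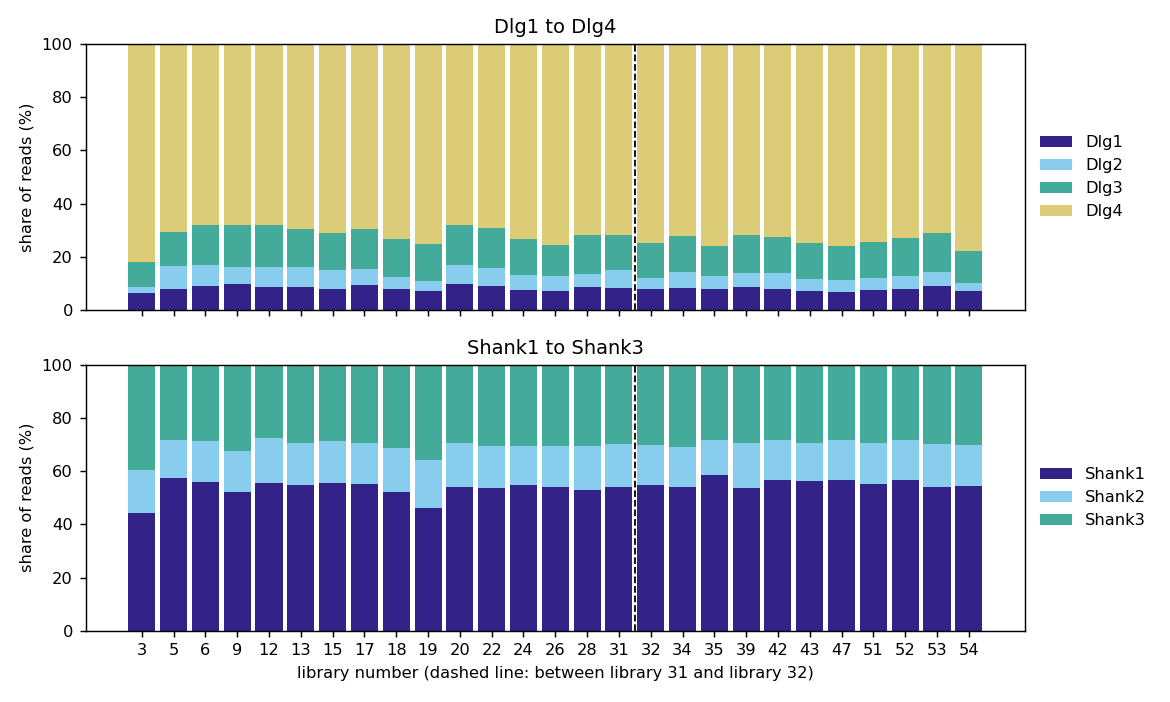
Share of each gene in the summed reads of Dlg1 to Dlg4 (upper panel) and of Shank1 to Shank3 (lower panel), 1 bar per library from 0 to 100%, in order of library number, with a dashed line between libraries 31 and 32. Dlg4 takes 67.9 to 81.8% and Shank1 44.3 to 58.4%, and library 3 at the left edge has the largest shares of Dlg4 and Shank3.

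The library set was the one grouping that the labels' numbers and the depth showed, and none of the 9 members was called between the sets, while 8.85% of 11716 genes were called higher and 9.18% lower in the libraries from 32. DESeq2's Wald test likewise called 0 of 9, beside 15.7% of all genes. At an unadjusted p under 0.05 there were 3 members, all higher from 32. The share of all genes at that threshold is not given here, so this count has no background. Shank1 was higher by 0.24 on the log2 scale (SE 0.11, edgeR adjusted p = 0.126), with medians of 5701 against 5160 normalized reads and overlapping ranges (4477 to 7364 against 2421 to 6248). Shank3 was higher by 0.14 (SE 0.064, edgeR adjusted p = 0.130), and Dlg4 by 0.12 (SE 0.050, edgeR adjusted p = 0.0837). Without libraries 3, 18 and 19 the differences were 0.12 for Shank1, 0.080 for Shank3 and 0.087 for Dlg4. Dlg2 was the member with the largest difference, -0.32 (SE 0.16, edgeR adjusted p = 0.179), with a median of 535.0 reads from 32 against 670.5 up to 31. Without library 3, the lowest of its set, Dlg2 was called lower from 32 at -0.38 (SE 0.13, edgeR adjusted p = 0.0407), and without libraries 3, 18 and 19 at -0.48 (SE 0.10, edgeR adjusted p = 0.00163). Dlg2 was the 1 member called in these settings, beside 18.9% and 18.4% of all genes in either direction. The remaining members differed by 0.12 for Shank2, 0.071 for Dlgap1, -0.0046 for Dlg3, -0.012 for Dlg1 and -0.074 for Homer1, with edgeR adjusted p from 0.216 to 0.976. In shares, Dlg2 made up 6.16% of the Dlg reads up to 31 and 4.81% from 32 (difference -1.35 percentage points, permutation p = 0.0190), Shank1 53.3% and 55.5% of the Shank reads (2.26 points, p = 0.0428), and Shank2 15.9% and 15.1% (-0.794 points, p = 0.0280). The p for Shank1 was 0.0542 without library 3, and that for Shank2 was 0.0660 without libraries 12 and 20 and 0.0964 without libraries 3, 18 and 19. The share of Dlg4 differed by 2.41 points (p = 0.0608), and by 3.10 points without library 3 (p = 0.00376). That of Dlg3 differed by -0.641 points (p = 0.263), and by -0.942 without library 3 (p = 0.0382). These p-values are not adjusted, and come from tests of 7 shares that sum to 100% within each family.

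**Figure D5:**
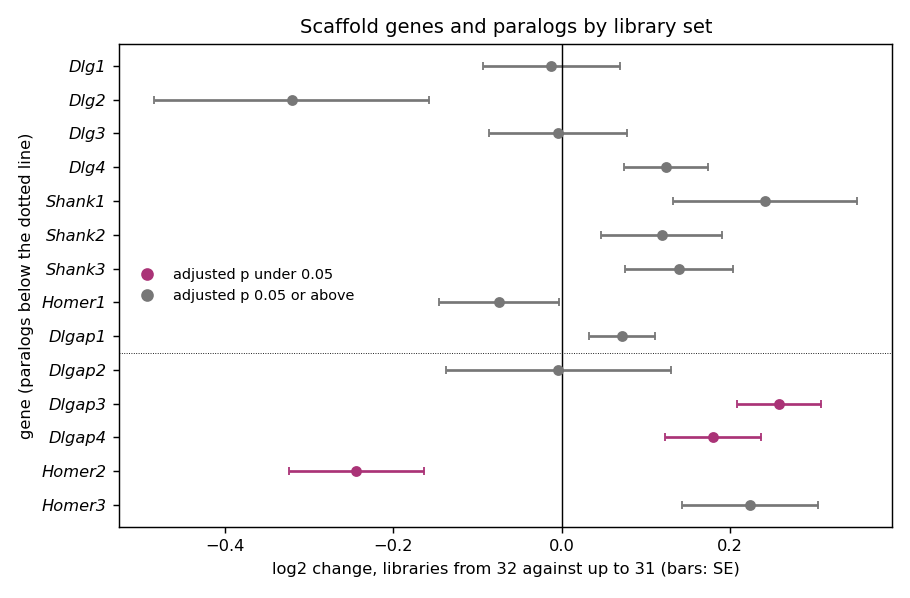
log2 change of the 9 scaffold genes and 5 relatives in the libraries from 32 (n = 11) against those up to 31 (n = 16), with bars of 1 SE, and genes with an edgeR adjusted p under 0.05 in purple. None of the 9 members passes, whereas Dlgap3 (0.26), Dlgap4 (0.18) and Homer2 (-0.24) do.

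Of the relatives, 3 of 5 tested were called between the sets. Dlgap3 was higher from 32 by 0.26 (SE 0.050, edgeR adjusted p = 0.000566) and Dlgap4 by 0.18 (SE 0.057, edgeR adjusted p = 0.0260, and 0.12 without libraries 3, 18 and 19), while Homer2 was lower, at -0.24 (SE 0.080, edgeR adjusted p = 0.0327). Among the partner lists, Cacng8 had the largest change (0.44, SE 0.064, edgeR adjusted p = 2.08e-05), followed by Grin2b (0.38, SE 0.081, edgeR adjusted p = 0.00144) and Cacng2 (0.29, SE 0.081, edgeR adjusted p = 0.0115). Beside 8.85% of all genes called higher and 9.18% lower, of the transmembrane partners 3 of 7 were called higher and none lower, of the receptor subunits 2 of 8 and none, of the adaptors 2 of 14 and 3, and of the signalling genes 0 of 10 in either direction (1 of 10 at an unadjusted p under 0.05). Differences between the lists and the members were not tested.

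The members were then set against marker scores of the tissue. None of the 9 followed the oligodendrocyte score with edgeR or with DESeq2's Wald test (1.66% of all genes did with edgeR and 1.73% with the Wald test). No share of all genes is given here for an unadjusted p under 0.05, at which 1 of 9 did. That was Dlg3, at -0.093 log2 per SD of the score (SE 0.040, edgeR adjusted p = 0.358), and -0.017 without library 3. None followed the score of 10 immediate early genes such as Fos and Arc, which report recent activity, with either tool or at an unadjusted p under 0.05 (0.137% of all genes were called with edgeR). Homer1, which was not in that score, changed by 0.0031 log2 per SD (SE 0.036, edgeR adjusted p = 0.999). Counts over the whole locus do not resolve its short transcript.

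With the score of 7 excitatory neuron markers, added after the data were seen, 7 of 9 members were called higher. Beside them, 1814 of 11716 genes were called higher, and 32.8% of all genes in either direction. Dlg2 changed most, by 0.33 log2 per SD (SE 0.078, edgeR adjusted p = 0.00147), followed by Shank1 at 0.22 (SE 0.052, edgeR adjusted p = 0.00157), while Dlg3 and Dlg1 had 0.19 each. Homer1 was called at 0.098 (SE 0.032, edgeR adjusted p = 0.0179) and not without libraries 12 and 20 (edgeR adjusted p = 0.0757). Shank3 (0.082, edgeR adjusted p = 0.0545) and Dlgap1 (0.0100, edgeR adjusted p = 0.746) were not called. Shank3 was called with DESeq2's Wald test (adjusted p = 0.0293), with DESeq2 size factors (edgeR adjusted p = 0.0429) and, at 0.11, without libraries 12 and 20 (edgeR adjusted p = 0.0102). Without library 3, 2 of 9 members were called beside 11.3% of all genes in either direction, namely Dlg1 at 0.12 (SE 0.025, edgeR adjusted p = 0.00262) and Dlg3 at 0.10 (SE 0.020, edgeR adjusted p = 0.00169). Dlg2 and Shank1 were then at 0.19 and 0.12, and without libraries 3, 18 and 19 at 0.081 and -0.0039. In that last setting Dlg3 (edgeR adjusted p = 0.0362) and Homer1 (edgeR adjusted p = 0.0329) were the 2 called, beside 3.82% of all genes. Dlg1 was not called there (edgeR adjusted p = 0.137). With the pan-neuronal score, also added later, Homer1 (0.13, SE 0.027, edgeR adjusted p = 0.00274), Dlg3 (0.12) and Dlg1 (0.12) were called higher. Beside them, 597 of 11716 genes were called higher, and 12% of all genes in either direction. Without library 3 it was Homer1 at 0.12 (SE 0.028, edgeR adjusted p = 0.0106) that passed, beside 7.41% of all genes. Dlg3 was then at 0.061 and Dlg1 at 0.066. Homer1 was also the one called without libraries 12 and 20, beside 7.62% of all genes. Dlgap1 (0.047, edgeR adjusted p = 0.102) was called with DESeq2's Wald test (adjusted p = 0.0493) and, at 0.064, without libraries 3, 18 and 19 (edgeR adjusted p = 0.0331). One of the markers in that score, Syt1, was also the gene most like Dlg3.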

How the data were processed

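The mPFC RNA of 27 male Wistar rats was sequenced in 1 library for each rat. The values deposited by the authors are raw counts of reads on genes, not normalized. The submitters' processing notes name Trimmomatic, STAR and HTSeq. The genome build and the strand setting are not given in the sources used here, so reads of overlapping or antisense genes cannot be told apart. No member was on one of the 436 rows of split loci. All 27 columns were used. Totals ran from 4907255 to 12771309 reads. The labels and the study's methods differ on the section and the library kit. Symbols came from RefSeq (GRCr8). The members, gene lists and tests were chosen with earlier results of these data known.

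Levels are counts divided by DESeq2 (version 1.42.0) size factors, and the log2 scale takes normalized counts with a pseudocount of 1 added, so changes of low genes are understated. Without molecular identifiers, intervals of counting error cover counting only. Spread was tested by a chi-square dispersion test against Poisson counts in genes with a mean of at least 10 reads. Fits on the library set, on marker scores (mean z score of the markers) and on each member (z score) used edgeR 4.0.16 (quasi-likelihood test, TMM, filterByExpr) in R 4.3.3, with Benjamini-Hochberg adjustment over all genes tested and a threshold of 0.05. Counts at an unadjusted p under 0.05 are given without the share of all genes at that threshold. Permutation tests were two-sided with 100000 permutations. P-values of the fits and permutation tests judge a relation against the variation between these libraries. Those of the dispersion test judge that variation against counting.

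Named genes were the 9 members, their 6 paralogs, up to 3 called genes with the largest change per fit from the partner lists, and the 3 genes of highest rho per member, of which 1 is not reported here. Cacng3, Gphn, Fos, Arc and the cell type markers are named as examples of their lists. Alternatives were DESeq2 size factors, no filter, DESeq2's Wald test, the library set as a term, TMM or total counts in the log2 values, a pseudocount of 0.1, and leaving out libraries 12 and 20. Leaving out library 3, or libraries 3, 18 and 19, or each library in turn, and the excitatory and pan-neuronal scores were added after seeing the data. On simulated counts of 11716 genes the set contrast recovered 82 of 100 changes of 0.5 and 96 of 100 of 1 on the log2 scale, with 10 false calls. The simulated fit on Shank1 recovered 69 of 100 changes of 0.2 and 87 of 100 of 0.4, with 7 false calls. Simulated over 11730 genes, the dispersion test recovered 175 of 200 with 16 false calls. Statistics on the fitted values were run with scipy 1.17.1 and pandas 2.3.3 in Python 3.11.15, and plots were drawn with matplotlib 3.10.9.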

Additional observations from a re-analysis of the deposited data

How the results depend on the processing

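Results on the members kept their direction and their side of the threshold under DESeq2 size factors, no filter, TMM or total counts in the log2 values and a pseudocount of 0.1, except that Shank3 passed with the excitatory score under DESeq2 size factors and Dlg3 changed sign as given below. DESeq2's Wald test added Shank3 with the excitatory score and Dlgap1 with the pan-neuronal score. The pairs called went from 17 to 10 without library 3 and to 11 without libraries 3, 18 and 19. Of 45 calls (the 17 pairs, the members called with the excitatory and pan-neuronal scores, and the named relatives, partners and genes following Dlgap1), 14 were lost without library 3, 15 without libraries 3, 18 and 19, and 8 without libraries 12 and 20, where both called pairs of Homer1 were among the lost. Total counts in the log2 values lost 1, Ppp3ca. The median rho was 0.136 to 0.255 when each library was left out in turn, 0.034 without libraries 3, 18 and 19, and 0.41 with the library set as a term. Members called with the excitatory score went from 7 to 2 without library 3 (Dlg1 and Dlg3) and to 2 without libraries 3, 18 and 19 (Dlg3 and Homer1). The shares of all genes called were 32.8%, 11.3% and 3.82%. Members called with the pan-neuronal score went from 3 to 1 without library 3 and to 1 without libraries 12 and 20, and were 2 without libraries 3, 18 and 19 (Homer1 and Dlgap1). For that score the shares were 12%, 7.41%, 7.62% and 7.59%. Members called between the library sets went from 0 to 1 in both settings without library 3, the gene being Dlg2. Of all genes, 18.9% were called without library 3 and 18.4% without libraries 3, 18 and 19. No paired analysis was possible because the samples form a single group. Differences of the shares between the library sets were -0.695 points for Dlg1 without libraries 3, 18 and 19 (permutation p = 0.0376), -0.942 for Dlg3 without library 3 (p = 0.0382), and 3.10 and 3.60 for Dlg4 without library 3 and without libraries 3, 18 and 19 (p = 0.00376 and 0.00089). For Shank1 they were 1.67 (p = 0.0542) and 0.928 (p = 0.127) in these same settings. For Shank2 they were -0.689 without libraries 12 and 20 (p = 0.0660) and -0.570 without libraries 3, 18 and 19 (p = 0.0964). Values near 0 changed sign: between the library sets Dlg3 to 0.00085 with no filter and to 0.034 without libraries 12 and 20, Dlg1 to 0.028 there, and Homer1 in the immediate early gene fit to -0.018 there. Without libraries 3, 18 and 19, the excitatory score fit gave -0.0039 for Shank1 and -0.0084 for Shank3, and the rho was -0.20 for Dlg1 and Shank1, -0.11 for Dlg3 and Shank1, -0.038 for Dlg2 and Dlg4 and -0.16 for Dlg2 and Shank3. The causes were not tested.

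Counts over all genes also moved. Genes following Shank1 went from 4029 to 2083 without library 3 and to 681 without libraries 3, 18 and 19. For the others the corresponding counts were 4087, 1961 and 292 for Shank2, 3144, 2234 and 1566 for Shank3, 2414, 1110 and 194 for Dlg4, 4057, 1856 and 2374 for Dlg1, 3698, 2461 and 2932 for Dlg2, and 4174, 2205 and 1998 for Dlg3. Those following Dlg4 were 1411 with the library set as a term. Genes following Homer1 went from 1946 to 576 without libraries 12 and 20, and those following Dlgap1 were 1 to 5 over all alternatives. The excitatory score count went from 3840 to 1328 and 447, and the pan-neuronal count from 1407 to 868, 889 and, without libraries 12 and 20, 893. The oligodendrocyte count was 195, with 390 when the library set was a term. Depth, library set and cohort cannot be told apart, and the lowest totals lie in the set with the wider spread.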

Other observations

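Scaffold genes of other synaptic compartments were counted in the same fits, where 9.01% to 17.3% of all genes were called higher, and 0.0171% in that on Dlgap1. Of 6 scaffold genes of inhibitory postsynapses, such as Gphn, 5 were called higher in the fit on Dlg1, 4 in those on Dlg2, Dlg3, Shank1 and Shank2, 3 in that on Homer1, 2 in those on Dlg4 and Shank3, and 0 in that on Dlgap1. Without library 3 the counts were 3 for Dlg1, Dlg3 and Homer1, 2 for Dlg2, Dlg4, Shank1 and Shank2, and 1 for Shank3, and without libraries 12 and 20 that for Homer1 was 0 (beside 3.14% of all genes). Lhfpl4, which binds GABA-A receptors, changed by 0.36 log2 per SD of Shank1 (SE 0.059, edgeR adjusted p = 2.55e-05) and by 0.26 per SD of Dlg4 (SE 0.069, edgeR adjusted p = 0.00837), and neither was called without libraries 3, 18 and 19 (0.14 and 0.11, edgeR adjusted p = 0.0957 and 0.281). Of 6 tested scaffold genes of the presynaptic active zone, 6 were called higher in the fits on Shank1 and on Shank2, 5 in those on Dlg1, Dlg3 and Dlg4, 4 in that on Shank3, 3 in that on Dlg2, and 0 in those on Homer1 and Dlgap1 (2 and 1 at an unadjusted p under 0.05). Without library 3 the presynaptic counts were 5 for Shank2, 4 for Shank1, Shank3 and Dlg4, 2 for Dlg1, Dlg2 and Dlg3, and 0 for Homer1. Unc13a, a vesicle priming factor, changed by 0.33 log2 per SD of Shank1 (SE 0.025, edgeR adjusted p = 2.35e-10), and by 0.16 without libraries 3, 18 and 19. These counts are over lists of unequal role in the same libraries, and differences between them were not tested.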
